A study of Mus musculus with 2 samples.

Results

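Droplets that carried T cell RNA and macrophage RNA under the same barcode were described in immune cells from metastatic mouse lung. A droplet was a member when it had a UMI (unique molecular identifier, which counts a captured RNA molecule) in at least 3 of the T cell genes Cd3d, Cd3e, Cd3g, Trac, Trbc1 and Trbc2. It also needed 10 or more summed UMIs of the macrophage genes C1qa, C1qb, C1qc and Ms4a7. There were 152 members among 3081 kept niche droplets and 35 among 3540 kept distal droplets, 187 of 6621 in all. Members were set against T droplets, which met the T cell rule with under 10 macrophage UMIs (47 niche and 407 distal). They were also set against macrophage droplets, which had 10 or more macrophage UMIs and no UMI of the 6 T cell genes (1976 niche and 415 distal). Members were thus chosen by the measured UMIs of these 10 genes, which are given below as description only. In GRCm38, Cd3e lies on chromosome 9 (44998740 to 45009627), Trac on chromosome 14 (54220521 to 54224206), C1qa on chromosome 4 (136895917 to 136898803) and Ms4a7 on chromosome 19 (11321039 to 11336146).

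The niche library held immune cells labelled as niche and the distal library immune cells labelled as distal lung. Both came from lungs of female Balb/c mice, 7 days after labelling-4T1 cells, a mouse mammary carcinoma line, had been injected into a vein. All mice shared the tumour cells, the strain, the sex and the day. Cells were sorted by fluorescence from dissociated lung and made into 1 droplet-based 3′ library per group. The sources used here do not give the ages, how many animals a library came from, or the gates of the sort. With 1 library per group no test was possible. Differences are those between these libraries, and each interval is a 95% interval for counting error only.

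T cells recognise peptides on MHC molecules through a receptor that signals through the CD3 chains. Naive T cells keep the transcription factors Lef1 and Tcf7 and the homing receptor Ccr7, whereas activated T cells put on Icos, Ctla4 and Pdcd1, and killer cells load granzymes. Macrophages make the C1q chains of complement, engulf dying cells and present peptides to T cells on MHC class II. In droplet sequencing a barcode marks a droplet, so RNA of a pair of cells captured in the same droplet, or of cells attached to each other, gets the same barcode, and RNA free in the suspension can enter any droplet. Which of these gave the members was not tested.

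Depth differed between the groups. The libraries held 38036915 UMIs (niche) and 22323465 UMIs (distal), and kept droplets had medians of 11197 and 5794.5 UMIs. Niche members had 3365 to 82027 UMIs, with a median of 21140.5, against medians of 3025 in niche T droplets and 12749.5 in niche macrophage droplets. Distal members had 5277 to 27509 UMIs, with a median of 12150, against 3360 in distal T droplets and 7731 in distal macrophage droplets. Members also had the most genes, with medians of 4325 against 1074 in T droplets and 3099 in macrophage droplets of the niche library. The distal medians were 3078, against 1312 and 2286. The libraries shared 4 barcodes. A doublet caller (Scrublet) marked 5 of 6621 droplets, or 0.0755%, and no member, and was taken as not having worked. Its scores were higher in members, of which 14.5% (niche) and 17.1% (distal) lay in the highest 5% of their library. The shares were 2.13% and 9.09% of T droplets and 6.22% and 7.47% of macrophage droplets.

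In the niche library most droplets with T cell genes were members. Of 199 niche droplets that met the T cell rule, 152 held 10 or more macrophage UMIs, or 76.4% (Clopper-Pearson interval 69.9 to 82.1). Of 442 such distal droplets 35 did, or 7.92% (5.58 to 10.8). Among the other kept droplets the shares were 71.1% (2048 of 2882, 69.4 to 72.7) in the niche library and 14% (435 of 3098, 12.8 to 15.3) in the distal library. The niche interval thus overlapped that of the other droplets, and the distal share lay below it. Of these 2048 niche and 435 distal droplets 1976 and 415 were the macrophage droplets themselves. The shares of the other droplets therefore mostly count macrophages, not other cells with macrophage RNA. Classes of other cell types were counted only among droplets with no UMI of the 6 T cell genes, which left out every member. Such droplets with at least 3 B cell genes held 10 or more macrophage UMIs in 58.9% of 124 niche and 14% of 272 distal cases. The 29 niche and 4 distal members that had at least 3 B cell genes are not in these shares. For neutrophil genes the shares were 52.0% of 102 niche and 4.25% of 424 distal droplets, and for endothelial genes 19 of 38 droplets and 2.41% of 83. The niche intervals of the B cell (49.7 to 67.6), neutrophil (41.8 to 62.0) and endothelial (33.4 to 66.6) classes lay below that of the T cell rule. In the distal library the intervals of these classes overlapped that of the T cell rule. Distal droplets with alveolar macrophage genes, from the macrophages of the air spaces, had the lowest share of these distal classes, 0.830% of 1205. Seen from the macrophage side the libraries were alike, since members were 6.91% of niche droplets and 7.45% of distal droplets with 10 or more macrophage UMIs. Members made up 4.93% (4.20 to 5.76) of all kept niche droplets and 0.989% (0.690 to 1.37) of all kept distal droplets.

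The rule splits droplets with T cell genes at 10 macrophage UMIs, so the ranges of members and T droplets could not overlap. In niche members it ran from 12 to 762 macrophage UMIs with a median of 241.5, and in distal members from 15 to 407 with a median of 119. Most T droplets had next to none, since 18 of 47 niche and 372 of 407 distal T droplets had 0 and another 26 and 32 had 1 or 2. Few droplets lay near the threshold. The niche members just inside it had 12, 18 and 24 macrophage UMIs and the T droplets just outside had 3, 6 and 9, while the distal values were 15, 19 and 25 inside and 3, 6 and 7 outside. On the T cell side of the rule, droplets with 10 or more macrophage UMIs had exactly 1 of the 6 genes in 59 niche and 17 distal cases, 2 genes in 13 and 3, and 3 genes in 18 and 6. In the niche library T cell gene UMIs were of similar number on both sides, with a median of 13 (3 to 119) in members against 14 in T droplets. Distal members had fewer, with a median of 10 (3 to 44), against 17 in distal T droplets. Among members the T cell and macrophage UMIs showed no relation across droplets, with a Spearman rho of 0.02 over 152 niche and 0.03 over 35 distal droplets. Total UMIs rose with macrophage UMIs (rho of 0.69 and 0.53), and these droplets share their library and their total, so the values are a description.

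**Figure D1:**
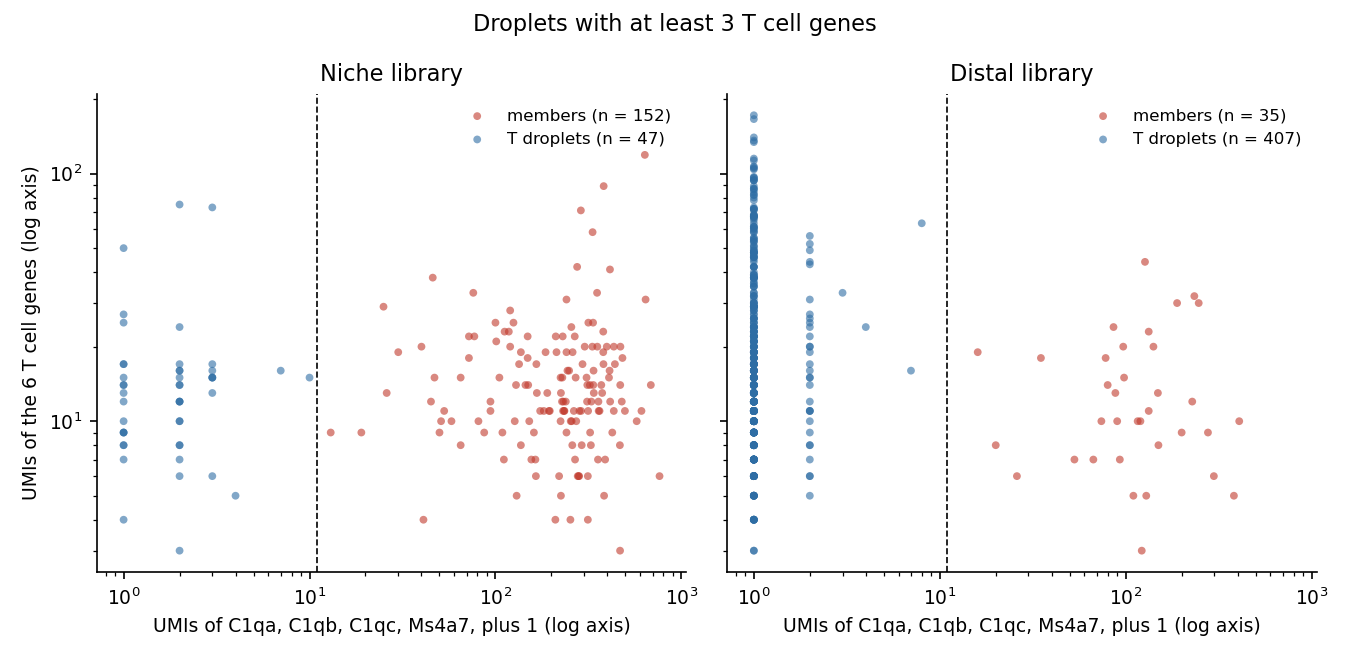
Each point is a droplet with at least 3 of the 6 T cell genes. The x axis gives its summed UMIs of C1qa, C1qb, C1qc and Ms4a7 plus 1 and the y axis its UMIs of the 6 T cell genes, both on log axes, and the dashed line marks the threshold of 10 macrophage UMIs. By the rule members lie to the right of the line. The 152 niche members form the main cloud of the niche panel beside 47 T droplets, whereas 407 T droplets fill the left side of the distal panel beside 35 members.

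Genes of both cell types outside the rule were found in members. At least 3 of 13 other T cell genes, such as Cd2, Lck and Lat of the receptor's signalling path, were found in 98.0% of niche members, 95.7% of niche T droplets and 0.405% of niche macrophage droplets. The distal shares were 100%, 99% and 0.241%. Macrophage droplets were chosen without UMIs of the 6 T cell genes, so their shares of other T cell genes can be low through that choice. At least 3 of 5 other macrophage genes, such as Adgre1 (the antigen F4/80) and Csf1r (the receptor of macrophage growth factor), were found in 99.3% of niche members, against 21.3% of T droplets and 87.2% of macrophage droplets. The distal shares of these were 94.3%, against 9.58% and 85.1%. Genes of other cell types had UMIs in some members. At least 3 B cell genes were found in 29 of 152 niche members, or 19.1%, against 6.38% of T droplets and 3.69% of macrophage droplets. Of the distal members 4 of 35 had them, or 11.4%, against 2.21% and 9.16%. At least 3 neutrophil genes were found in 4.61% of niche members, against 4.26% and 2.68%, and in 2.86% of distal members, against 1.23% and 4.34%. At least 2 of 10 dendritic cell genes were found in 69.1% of niche members, against 17.0% of T droplets and 32.1% of macrophage droplets, and in 57.1% of distal members, against 8.60% and 21.9%. That list holds Ccr7, which T cells also make, and Itgax, which macrophages also make. At least 3 of the 10 dendritic cell genes were found in 32.9% of niche members, against 4.26% of T droplets and 7.79% of macrophage droplets. The distal shares were 14.3% of members, against 1.23% and 3.61%. At least 2 endothelial genes were found in 15.1% of niche members, against 4.26% and 5.92%, and in 2.86% of distal members, against 1.23% and 3.37%. At least 3 of 8 alveolar macrophage genes were found in 10.6% of distal T droplets, against 5.71% of distal members and 2.41% of distal macrophage droplets. In the niche library these shares were 2.13%, 0% and 0.101%. The 7 carcinoma genes had 5.63 UMIs per distal T droplet, against 0.457 per distal member. At least 3 of them were found in 0.983% and 2.86%. NK cell genes (2 or more) were found in 3 of 152 niche members and 0 of 35 distal members, where a count of 0 allows a share of up to 8.57% (3 droplets of 35). The part of these other genes' sources in the results below was not tested, apart from the shares in members with under 3 B cell genes. Among these 123 niche and 31 distal members Lef1 or Tcf7 was found in 68.3% and 61.3%, and Icos in 45.5% and 35.5%, beside the shares of all members below.

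T cell states were first read as shares of droplets with a UMI. Most niche members carried naive genes: Lef1 or Tcf7, transcription factors of naive and memory T cells, had a UMI in 107 of 152 niche members, or 70.4% (62.5 to 77.5). This was close to the 34 of 47 niche T droplets, or 72.3% (57.4 to 84.4), and far above the 0.557% of niche macrophage droplets, which serve as the background. Among distal droplets 20 of 35 members had them, or 57.1% (39.4 to 73.7), against 206 of 407 T droplets, or 50.6% (45.6 to 55.6), and 0.482% of macrophage droplets. The intervals overlapped in both libraries. At least 2 naive genes were found in 65.1% of niche members, against 59.6% of niche T droplets. For distal droplets these shares were 62.9% (44.9 to 78.5) of members against 37.8% (33.1 to 42.7) of T droplets, and these intervals did not overlap.

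Killer and helper lineages were both present among members. Cd8a or Cd8b1, the chains of the CD8 coreceptor of killer T cells, had a UMI in 60 of 152 niche members, or 39.5%, against 18 of 47 T droplets, or 38.3%, and 0.607% of macrophage droplets. Of the distal members 9 of 35 had them, or 25.7% (12.5 to 43.3), against 148 of 407 distal T droplets, or 36.4% (31.7 to 41.2). Cd4, the helper coreceptor, was found in 27% of niche members, against 21.3% of T droplets. The distal shares were 25.7% of members against 24.8% of T droplets. Cd4 also had a UMI in 3.09% of niche and 6.02% of distal macrophage droplets, a higher background than that of the other T cell genes named here. Both coreceptors were found together in 10 of 152 niche members, or 6.58%, against 2.13% of niche T droplets. Neither was found in 40.1% of niche members and 48.6% of distal members. The naive genes were not limited to a lineage, since 46 of 60 niche members with CD8 and 24 of 31 with Cd4 alone had Lef1 or Tcf7. Trdc, the constant segment of the gamma delta receptor, had a UMI in 5 of 152 niche members (3.29%) and in 0 of 35 distal members, against 2.13% of niche and 3.19% of distal T droplets.

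Regulatory T cells were a small group on every side. Foxp3, their lineage factor, had a UMI in 11 of 152 niche members, or 7.24% (3.67 to 12.6), against 1 of 47 niche T droplets, or 2.13% (0.0539 to 11.3), and 0.0506% of macrophage droplets. It was found in 3 of 35 distal members, or 8.57% (1.80 to 23.1), against 53 of 407 distal T droplets, or 13% (9.91 to 16.7). The intervals overlapped in both libraries. Of the 11 niche members with Foxp3, 9 also had Icos.

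Icos, a costimulatory receptor that T cells put on after activation, set niche members apart from niche T droplets. It had a UMI in 69 of 152 niche members, or 45.4% (37.3 to 53.7), against 9 of 47 niche T droplets, or 19.1% (9.15 to 33.3), and 0.253% of niche macrophage droplets. In the distal library the order was the other way, with 13 of 35 members, or 37.1% (21.5 to 55.1), against 206 of 407 T droplets, or 50.6% (45.6 to 55.6), and there the intervals overlapped. With each droplet thinned to 2000 UMIs the niche shares were 14.5% of 152 members against 13.2% of 38 T droplets. A member's 2000 UMIs hold mostly macrophage RNA, so thinning lowers its T cell part. At least 2 activation genes were found in 34.2% of niche members, against 21.3% of T droplets, and in 34.3% (19.1 to 52.2) of distal members, against 52.1% (47.1 to 57.0) of T droplets. Pdcd1, the checkpoint receptor PD-1, was found in 4 of 152 niche members (2.63%) and 3 of 35 distal members (8.57%), against 4.26% of niche and 23.8% of distal T droplets. Gzmb, a granzyme of killer cells, was found in 3.29% of niche members and 8.57% of distal members, against 8.51% of niche and 19.4% of distal T droplets.

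**Figure D2:**
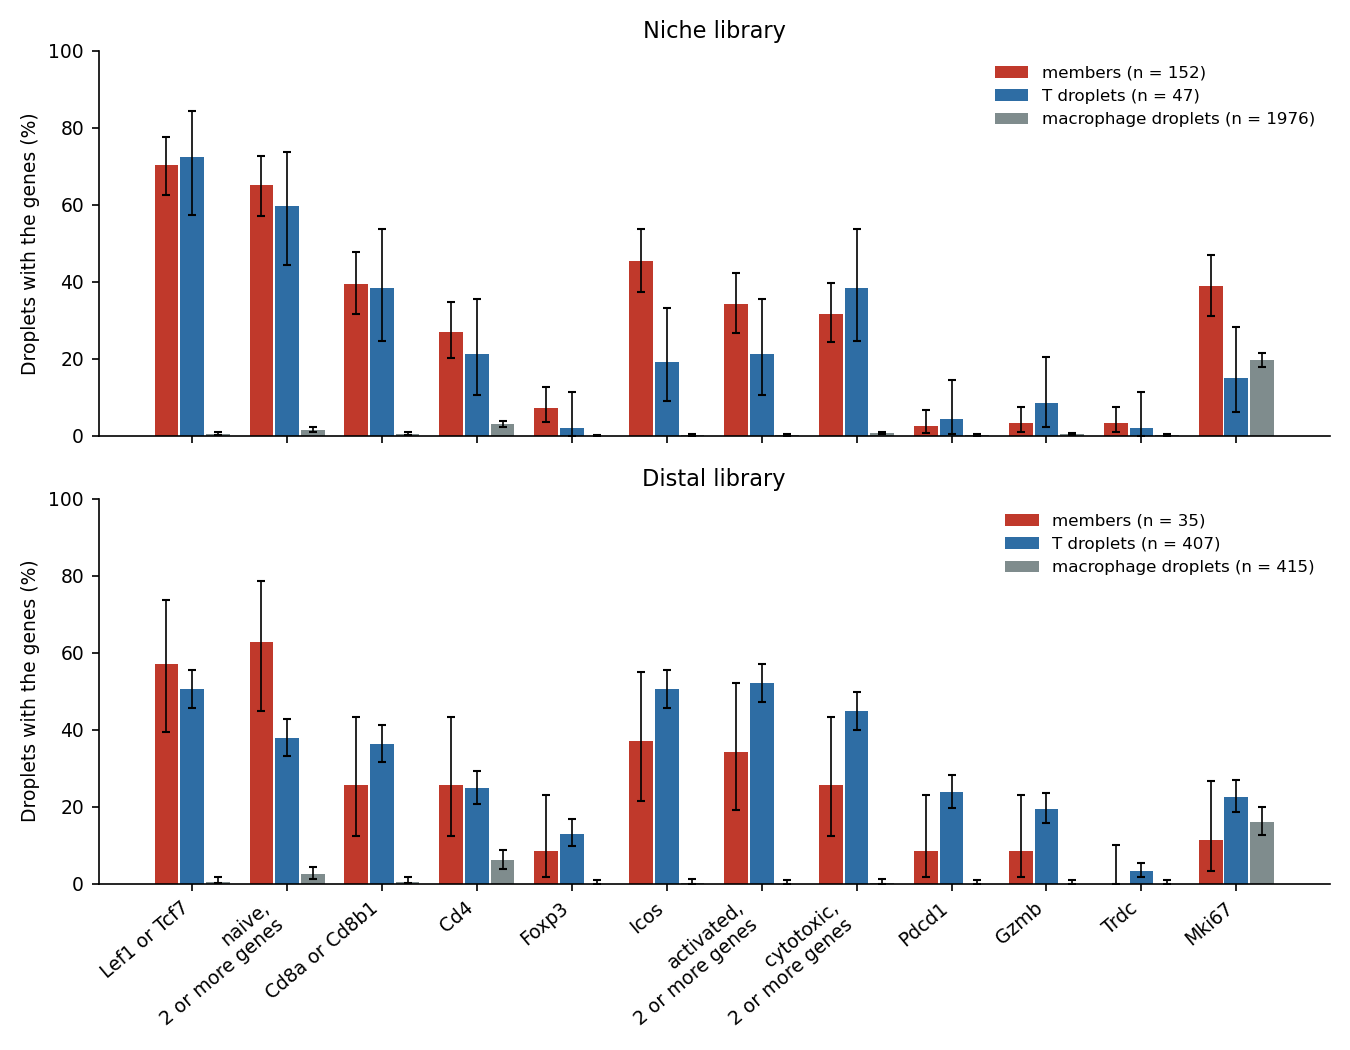
Bars give the share of droplets (%) with a UMI of the genes named on the x axis, for members, T droplets and macrophage droplets of the niche library (top) and the distal library (bottom), with exact 95% Clopper-Pearson intervals for counting error. Niche members resemble niche T droplets for Lef1 or Tcf7 (70.4% against 72.3%) and exceed them for Icos (45.4% against 19.1%), while distal members stand below distal T droplets for Pdcd1 (8.57% against 23.8%).

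The number of T cell gene UMIs per droplet differed between the groups and moved with these shares, most clearly in the distal library. Distal T droplets with 21 or more T cell UMIs (166 of 407) had at least 2 activation genes in 84.9%, at least 2 cytotoxic genes in 68.7%, Pdcd1 in 52.4% and Lef1 or Tcf7 in 37.3%. Only 6 of 35 distal members had that many. Among droplets with 5 to 20 T cell UMIs, a range chosen after the data were seen, 28 distal members and 232 distal T droplets remained. There Lef1 or Tcf7 was found in 60.7% of members against 59.9% of T droplets, at least 2 naive genes in 60.7% against 49.6%, and at least 2 activation genes in 28.6% against 30.6%. Pdcd1 was found in 7.14% against 4.31%. The distal difference in activation genes was thus seen with all droplets and was much smaller within this range. In the niche library the range held 119 members and 39 T droplets, and Icos was found in 45.4% (36.2 to 54.8) of members against 15.4% (5.86 to 30.5) of T droplets. At least 2 activation genes were found in 31.1% against 12.8%, and at least 2 naive genes in 65.5% against 66.7%.

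Whole lists were compared by their summed UMIs per 1000 UMIs of the 6 T cell genes, which sets the T cell part of a member beside that of a T droplet. The 12 naive genes reached 1192 in niche members against 985 in niche T droplets, a log2 ratio of 0.27 (0.16 to 0.39). The distal sums were 1199.6 in members against 333 in T droplets, a log2 ratio of 1.85 (1.72 to 1.97). Macrophage droplets, scaled to the macrophage UMIs of members, would carry 24.5% of the niche and 34.9% of the distal sum of members. With that part subtracted the naive ratios were -0.13 (niche) and 1.23 (distal). The 20 activation genes stood at 1.61 in niche members and 1.26 in distal members, but the macrophage part would come to 81.2% and 69.2%, most of it Rgs1, a regulator of chemokine receptor signals. With the macrophage part subtracted these ratios turned to -0.79 and -0.44. The 14 CD8 and cytotoxic genes stood at 0.87 and 1.10, and macrophages would carry 101% and 59.1% of the sums mostly as the chemokines Ccl4 and Ccl5. The 12 regulatory genes stood at 0.93 and 0.22, with a macrophage part of 9.66% and 7.34%. Lists that macrophages also express were therefore read by their T side genes.

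Levels of single T cell genes were then compared on the same scale, per 1000 UMIs of the 6 T cell genes. Only T side genes were read this way, that is, genes with at least 5 times more CPM (UMIs scaled to a common total per group) in T droplets than in macrophage droplets of both libraries. A gene was called when the whole interval of its ratio lay beyond 1.5-fold, with 20 or more UMIs. Over all 194 measured T side genes of the niche library outside the rule, 0% were called higher and 1.03% lower in members, and the median log2 ratio was 0.25. Over 286 distal T side genes 9.09% were called higher and 2.1% lower, with a median of 0.51. The scale itself therefore sits a little above 0, more so in the distal library. Over all genes, macrophage genes included, 67.2% of niche and 64.7% of distal genes were called higher, and 0.0449% and 0.144% lower, so no gene that macrophages also express can be read on this scale.

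Naive genes stood level with T droplets in the niche library. None of 7 measured naive genes on the T side was called there, and their median log2 ratio was 0.12. Tcf7 reached 48.1 UMIs per 1000 T cell UMIs in niche members, against 43.8 in niche T droplets. Lef1 reached 52.1 against 71.7, and Ccr7, the receptor that guides T cells to lymph nodes, 143 against 121. These values differed by less than their counting intervals. In the distal library 6 of 7 were called higher in members and 0 lower, with a median of 1.63. Ccr7 reached 130 in distal members against 37.5 in distal T droplets, a log2 ratio of 1.81 (1.39 to 2.18). S1pr1, the receptor that lets T cells leave tissue, reached 102 against 21.4, a log2 ratio of 2.26. Il7r, the receptor of a survival cytokine, reached 128 against 41.8 (1.63), and Satb1, a chromatin organiser, 77.4 against 22.8 (1.78). Lef1 reached 63.1 against 23.5 (1.45) and Tcf7 55.0 against 18.5 (1.59). Dapl1 was not called, with 20.4 against 19.3. For Ccr7, Lef1 and Tcf7 the distal members stood near the niche members given above, and the distal T droplets stood below both. Within the range of 5 to 20 T cell UMIs the distal log2 ratios were smaller, at 0.49 for Ccr7, 0.65 for Tcf7, 0.04 for Lef1 and 1.01 (0.42 to 1.54) for S1pr1.

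Activation genes showed no called rise over all droplets of either library. Of 11 measured on the T side, 0 were called in niche members, with a median log2 ratio of 0.18, and in distal members 0 were called higher and 1 lower, with a median of -0.46. The lower gene was Pdcd1, with 8.15 UMIs per 1000 T cell UMIs in distal members against 33.1 in distal T droplets, a log2 ratio of -1.86 (-3.91 to -0.66). Icos reached 50.9 in niche members against 22.6 in niche T droplets, a log2 ratio of 1.14 (0.44 to 2.0). Its interval lay above 0 but not wholly beyond 1.5-fold. In distal members Icos reached 40.7 against 48.4 (-0.21). Ctla4, an inhibitory receptor of activated and regulatory T cells, reached 44.5 against 23.9 in the niche library (0.86, 0.17 to 1.70) and 32.6 against 43.5 in the distal library (-0.37). Within 5 to 20 T cell UMIs the niche ratios were 1.42 (0.57 to 2.53) for Icos and 2.43 (1.18 to 4.51) for Ctla4, whose whole interval lay beyond 1.5-fold there. Without that limit niche T droplets held only 18 Ctla4 UMIs, in 10 of 47 droplets. Macrophage droplets, scaled to the macrophage UMIs of the members, would bring 0.24 Icos UMIs and 0.19 Ctla4 UMIs per 1000 T cell UMIs, far below those levels. Ifng, the cytokine that activates macrophages, had 27 UMIs in 9 niche members, of which 48.1% were in 1 droplet, and 3 UMIs in distal members.

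Genes of killer cells were level or low in members. Cd8a reached 32.3 UMIs per 1000 T cell UMIs in niche members against 37.2 in niche T droplets, a log2 ratio of -0.22 (-0.84 to 0.47). Its distal values were 16.3 against 43.9, a log2 ratio of -1.35 (-2.65 to -0.44). Within 5 to 20 T cell UMIs Cd8a stood at -1.29 (-2.14 to -0.41) in the niche library and at -0.46 (-1.91 to 0.55) in the distal library. Of the 28 Cd8a UMIs in all niche T droplets 35.7% were in 1 droplet. Cd8b1 reached 96.2 in niche members against 93.0 in niche T droplets, and in the distal library 48.9 against 87.4 (log2 ratio -0.81, -1.49 to -0.26). Within 5 to 20 T cell UMIs Cd8b1 stood at 0.18 (-0.28 to 0.68) in the niche library and -0.61 (-1.52 to 0.10) in the distal library. There Cd8a or Cd8b1 was found in 35.3% of niche members against 35.9% of niche T droplets. Gzmb was called lower in both libraries. It reached 4.85 in niche members against 45.2 in niche T droplets, a log2 ratio of -3.18 (-4.30 to -2.23). Of the 34 Gzmb UMIs in niche T droplets 30 were in 1 droplet (88.2%), so the niche call rests on that droplet. The distal values were 16.3 against 68.2, a log2 ratio of -1.98 (-3.28 to -1.08). Nkg7, a granule protein of killer cells, was called lower in the distal library only, with 42.8 in members against 179 in T droplets (-2.03), and reached 87.3 against 118 in the niche library (-0.44). Whether these ratios differ between libraries was not tested. In all, 0 of 7 measured CD8 and cytotoxic genes on the T side were called higher and 1 lower in niche members (median -0.44). Among distal members 0 of 10 were higher and 2 lower (median -1.09). Within 5 to 20 T cell UMIs Nkg7 stood at 0.48 (-0.11 to 1.17) in the niche library, the other direction, and at -1.01 (-1.91 to -0.31) in the distal library, and distal Gzmb at -0.21 (-2.29 to 1.09). Gzma did not meet the T side rule and had 68 UMIs in niche members, of which 61.8% were in 1 droplet.

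Regulatory and helper genes gave no call over all droplets. Of 5 measured regulatory genes in the niche library and 7 in the distal library, 0 were called, with medians of 0.50 and 0.14. Within 5 to 20 T cell UMIs niche Ctla4, also on the regulatory list, passed the call (above), and the summed niche regulatory list stood at 2.52. Tnfrsf18 (GITR), a receptor that is high on regulatory T cells, reached 27.9 UMIs per 1000 T cell UMIs in niche members against 12.0 in niche T droplets (1.15, 0.21 to 2.41). It reached 38.7 against 35.9 in the distal library (0.15). Foxp3 had 16 UMIs in niche members and 4 in distal members, against 1 and 89 in T droplets. Helper genes on the T side numbered 3 measured in the niche library and 4 in the distal library, none called, with medians of -0.01 and 0.68.

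**Figure D3:**
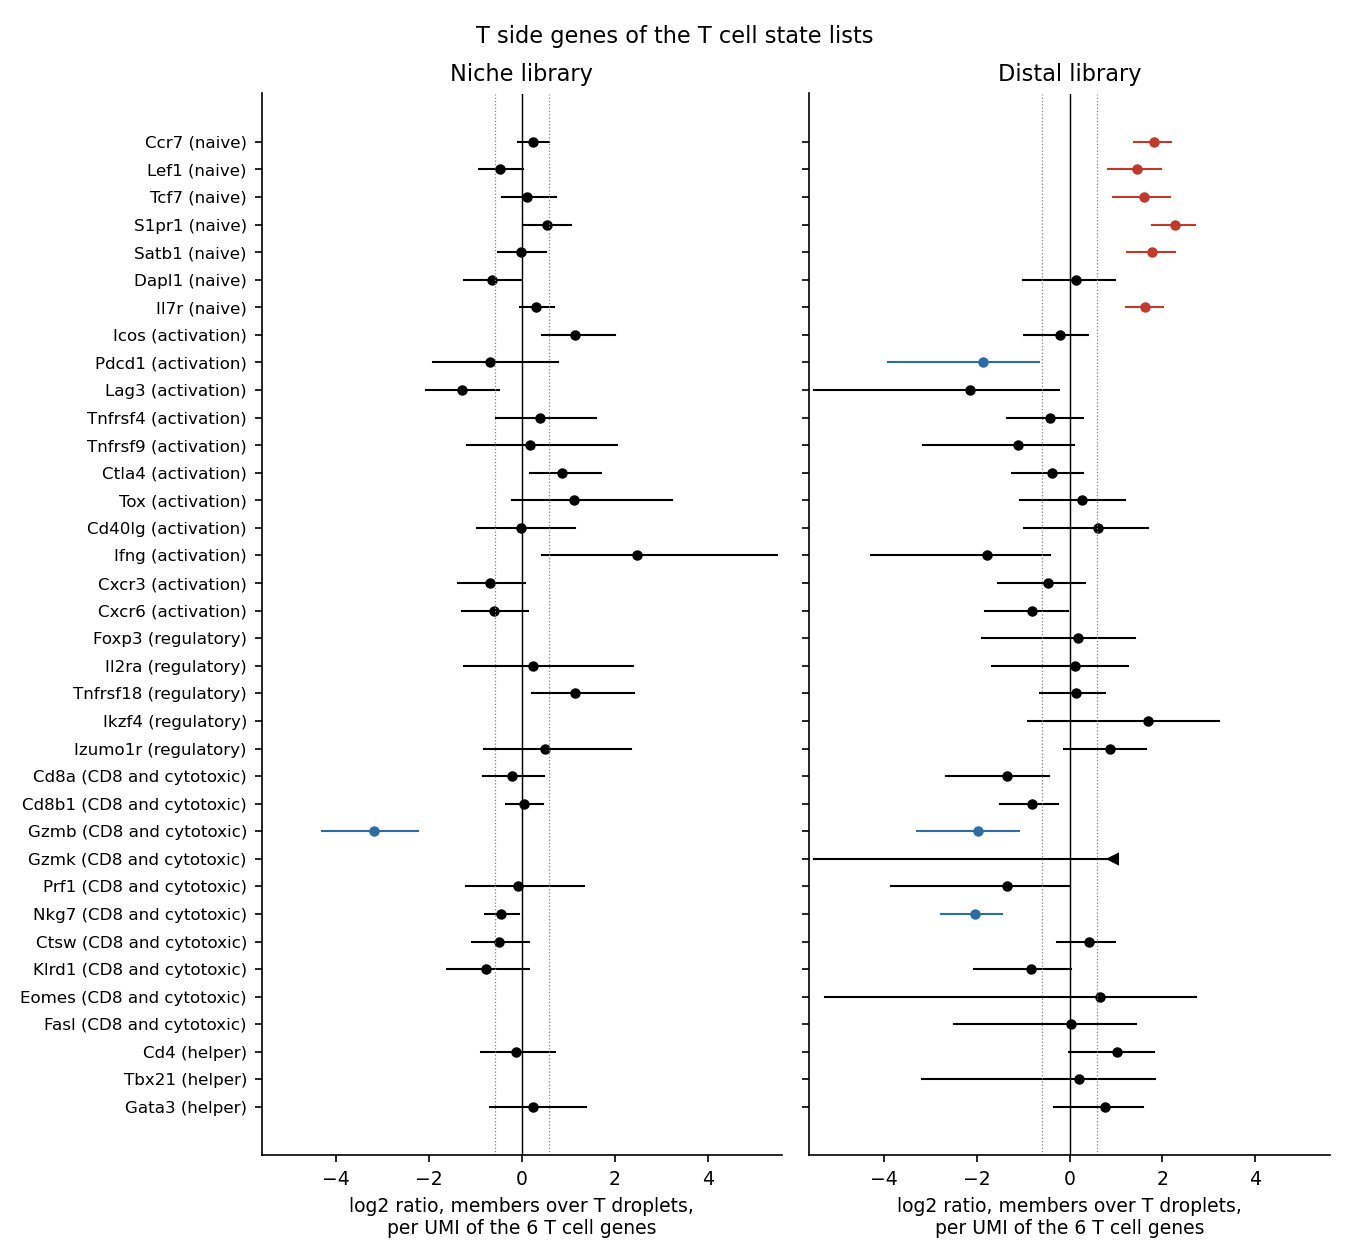
Points give the log2 ratio of UMIs per UMI of the 6 T cell genes, members over T droplets, for T side genes of the state lists, with exact 95% intervals for counting error cut at the edge of the axis. An arrowhead marks the upper limit of a gene with no UMI in members, dotted lines mark 1.5-fold, red marks genes called higher and blue genes called lower. The naive genes lie near 0 in the niche panel and between 1.45 and 2.26 in the distal panel for the 6 called genes, and Gzmb is lower in both (-3.18 and -1.98), where 1 niche T droplet holds 88.2% of the Gzmb UMIs of its group.

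Across all T side genes with 20 or more UMIs in each library (184), 8 had an interval above 0 in both libraries and 3 an interval below 0 in both. Gramd3 reached 49.7 UMIs per 1000 T cell UMIs in niche members against 26.6 in niche T droplets, and 55.0 against 16.3 in the distal library. Dusp10, a phosphatase of MAP kinases, reached 53.8 against 33.2 and 46.8 against 17.1. Inpp4b, a lipid phosphatase, reached 38.4 against 21.2 and 44.8 against 23.3. Ltb, the lymphotoxin chain that T cells use in lymphoid tissue, reached 169 against 127 and 179 against 118. Macrophage droplets would carry 65.5 and 61.8 of these Ltb values, more than the differences, and 49.7 of the niche Hcst value of 127 against 95.6, so these differences do not measure the T cell part alone. S1pr1, Vps37b, Gimap3 and Hcst were the other genes of that set. The median log2 ratio over the 184 genes was 0.26 (niche) and 0.57 (distal), beside 0.40 and 0.61 for Ltb. Within 5 to 20 T cell UMIs the ratios of the set stayed above 0. Of their distal intervals only that of S1pr1 did so, and Gramd3 stood at 0.50 (-0.43 to 1.25). In the niche library the intervals of Gramd3, Vps37b and Hcst stayed above 0 and the others reached below it. The 3 lower genes were Gzmb, Nkg7 and Lag3, and the niche values of Gzmb (above) and Lag3 rest on few T droplets. Lag3, an inhibitory receptor of activated T cells, reached 14.1 against 34.5 in the niche library and 2.04 against 13.4 in the distal library. In niche T droplets 61.5% of the Lag3 UMIs were in 1 droplet and 96.2% in 3. Macrophage droplets would carry 17.0 and 8.17, more than the whole value of members, so Lag3 does not measure their T cell part. Niche members with 5 to 20 T cell UMIs had a Lag3 ratio of 0.40 (-0.93 to 2.26), so that its direction was not kept there.

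Members differed among themselves. Niche members with Icos (69) had CD8 genes in 27.5% and Foxp3 in 13%, against 49.4% and 2.41% of the 83 niche members without it. Niche members at or above the median of macrophage UMIs had Lef1 or Tcf7 in 77.6% and at least 2 cytotoxic genes in 27.6%, against 63.2% and 35.5% of those below it. They had Mki67, a marker of cycling cells, in 51.3% against 26.3%, and Foxp3 in 3.95% against 10.5%. Deep members hold more RNA of every kind, and the part of depth in these differences was not tested.

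The macrophage side was read per 1000 UMIs of the 4 macrophage genes, in members against macrophage droplets. Only genes with at least 5 times more CPM in macrophage droplets than in T droplets are counted in the background. Of 389 such genes in the niche library 2.31% were called higher and 1.29% lower, with a median log2 ratio of 0.12. Of 137 in the distal library 1.46% were called higher and 8.03% lower, with a median of -0.30. Counts of the gene lists below cover all measured genes of a list, over which 3.62% of niche and 1.92% of distal genes were called higher and 0.211% and 0.494% lower.

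Genes of peptide presentation, T cell attraction and the interferon gamma response had few calls. As sums, the MHC class II list stood at a log2 ratio of -0.30 (niche) and -0.12 (distal). The attraction and costimulation list stood at -0.21 (niche) and 0.066 (distal). Each of these intervals lay wholly below 0 except the last, which lay above. Of 9 MHC class II genes, which present peptide to Cd4 T cells, 0 were called in either library, with medians of -0.26 (niche) and -0.03 (distal). Of 20 genes of T cell attraction and costimulation, 1 was called higher in niche members and 1 lower in distal members, with medians of -0.16 and 0.05. The higher gene was Il12b, a chain of interleukin 12, with 3.59 UMIs per 1000 macrophage UMIs in niche members against 1.55 in niche macrophage droplets (1.21). The lower gene was Ccl8, a chemokine, with 17.7 in distal members against 69.9 (-1.97). Cxcl9, the chemokine that draws Cxcr3 T cells, reached 312 against 391 in the niche library and 159 against 152 in the distal library. Of genes that answer interferon gamma, 0 of 15 were called in niche members and 1 of 14 was called higher in distal members, which was Socs1, a brake of that signal, with 11.3 against 4.64.

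Some resident genes were lower in distal members, and lipid genes had 1 lower call in each library. Of 10 resident macrophage genes 0 were called in niche members (median 0.04) and 2 were called lower in distal members (median -1.19). They were Folr2, a folate receptor, with 0.617 against 4.08, and Pf4, a chemokine, with 5.76 against 19.7. Of 12 lipid-associated genes 1 was lower in each library, Fabp5 in niche members (19.5 against 36.6) and Apoe in distal members (367 against 635, -0.79). The medians of the lipid list were -0.24 (niche) and 0.06 (distal). Phagocytosis genes had 0 calls among 13 in the niche library and 1 lower among 14 in the distal library, which was Marco.

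Among 128 genes on the macrophage side with 20 or more UMIs in each library, 3 had an interval above 0 and 8 an interval below 0 in both. Ccl2, which attracts monocytes, reached 45.6 UMIs per 1000 macrophage UMIs in niche members against 28.0 (0.71) and 47.7 in distal members against 25.4 (0.91). In the distal library 55.6% of the Ccl2 UMIs of members were in 1 droplet. Ccl7, a related chemokine, reached 31.6 against 17.5 (0.85) and 24.1 against 15.1 (0.68). Of its distal UMIs 78.6% were in 1 droplet, and without members of 3 or more B cell genes its distal ratio was -2.06. Cd72 reached 32.8 against 29.2 and 45.7 against 36.1. The 8 lower genes included Cxcl13, which attracts B cells, with 0.131 in niche members against 1.65 and none in distal members, at least 12.6-fold lower than 7.79 against the floor of 3 UMIs over the group. With at least 2 T cell genes in the rule, and 38 distal members, the distal Cxcl13 ratio turned to 0.42 (-0.04 to 0.82). They also included Ccl24, with 1.47 against 5.90 and 1.44 against 5.6, and Retnla, with 0.811 against 2.52 and 1.44 against 40.6. Retnla in niche members came almost wholly from 1 droplet (96.8%). Alox15, Cd209f, Rnase2a, Pla2g2d and Mgl2 made up the rest.

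**Figure D4:**
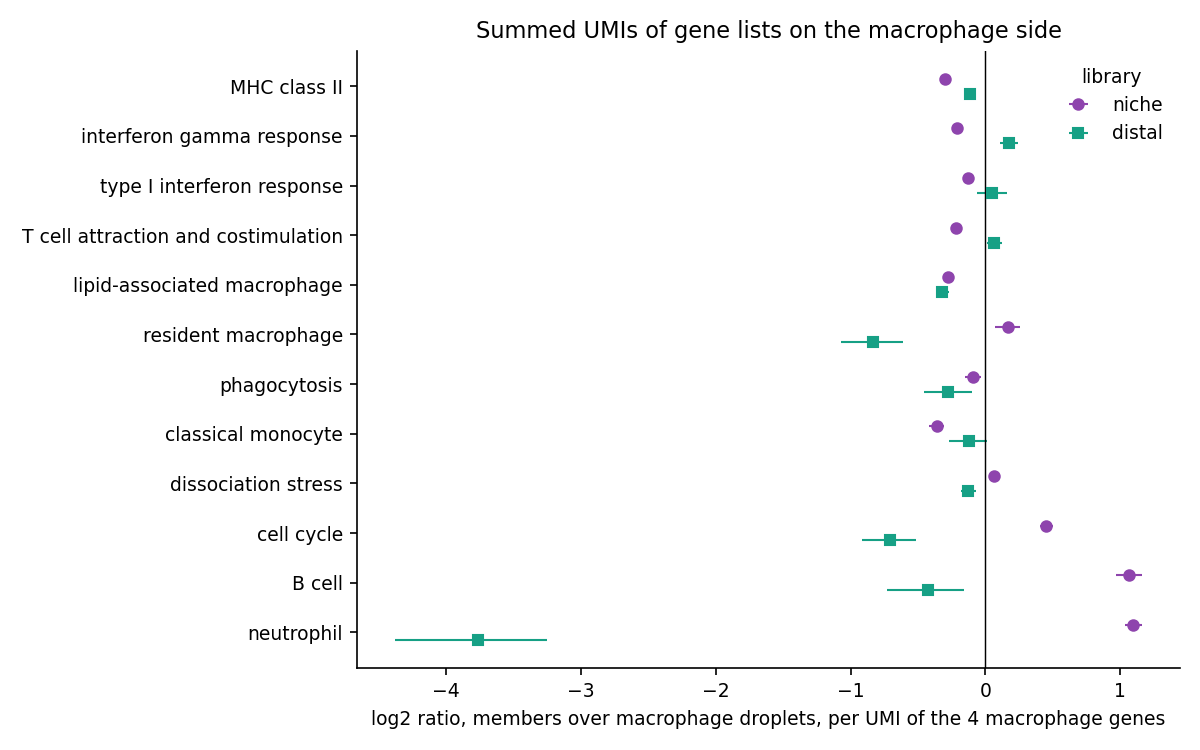
Points give the log2 ratio of summed UMIs of each gene list per UMI of the 4 macrophage genes, members over macrophage droplets, in the niche library (circles) and the distal library (squares), with exact 95% intervals for counting error, some smaller than the symbols. In the niche library the lists of macrophage function lie close to 0, between -0.36 and 0.17, while the distal resident list lies at -0.83 and the distal neutrophil list at -3.76.

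Cell cycle genes were higher in niche members than in distal members. Mki67 had a UMI in 59 of 152 niche members, or 38.8% (31.0 to 47.0), against 4 of 35 distal members, or 11.4% (3.20 to 26.7). The niche share stood above 14.9% of niche T droplets and 19.6% of niche macrophage droplets, and the distal share beside 22.6% and 15.9%. Thinned to 2000 UMIs the shares were 7.24% of niche members against 2.63% and 5.36%, and 2.86% of distal members against 12.9% and 8.27%. The 18 cell cycle genes together reached 1145 CPM of all UMIs in niche members and 497 CPM in distal members, a log2 ratio of 1.20 (1.01 to 1.40). In macrophage droplets the sums were 916 CPM (niche) and 932 CPM (distal), a ratio of -0.03, and in T droplets 474 CPM and 2434 CPM, a ratio of -2.36. Of the 18 genes 6 were called higher in niche members and 0 lower, with a median of 1.26. Over all 8916 genes measured in members, 1.17% were called higher and 1.03% lower.

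Single cell cycle genes followed the sum. Top2a, the topoisomerase of dividing cells, reached 125 CPM in niche members and 43.9 CPM in distal members, a log2 ratio of 1.47 (0.86 to 2.23). Birc5, a protein of mitosis, reached 101 CPM and 33.0 CPM (1.56), and Mcm6, of the replication helicase, 65.6 CPM and 17.6 CPM (1.82). Ube2c, of mitosis, reached 56.6 CPM and 8.79 CPM (2.52), but it had 4 UMIs in distal members and its ratio turned to -0.55 with at least 2 T cell genes in the rule. For Top2a the macrophage droplets stood at 96.0 CPM (niche) and 108 CPM (distal), and the T droplets at 22.0 CPM and 243 CPM. Per macrophage UMI the cell cycle list was at 0.45 in niche members over niche macrophage droplets and at -0.71 in distal members over distal macrophage droplets. Whether T cell or macrophage RNA carried these transcripts in members cannot be told apart.

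**Figure D5:**
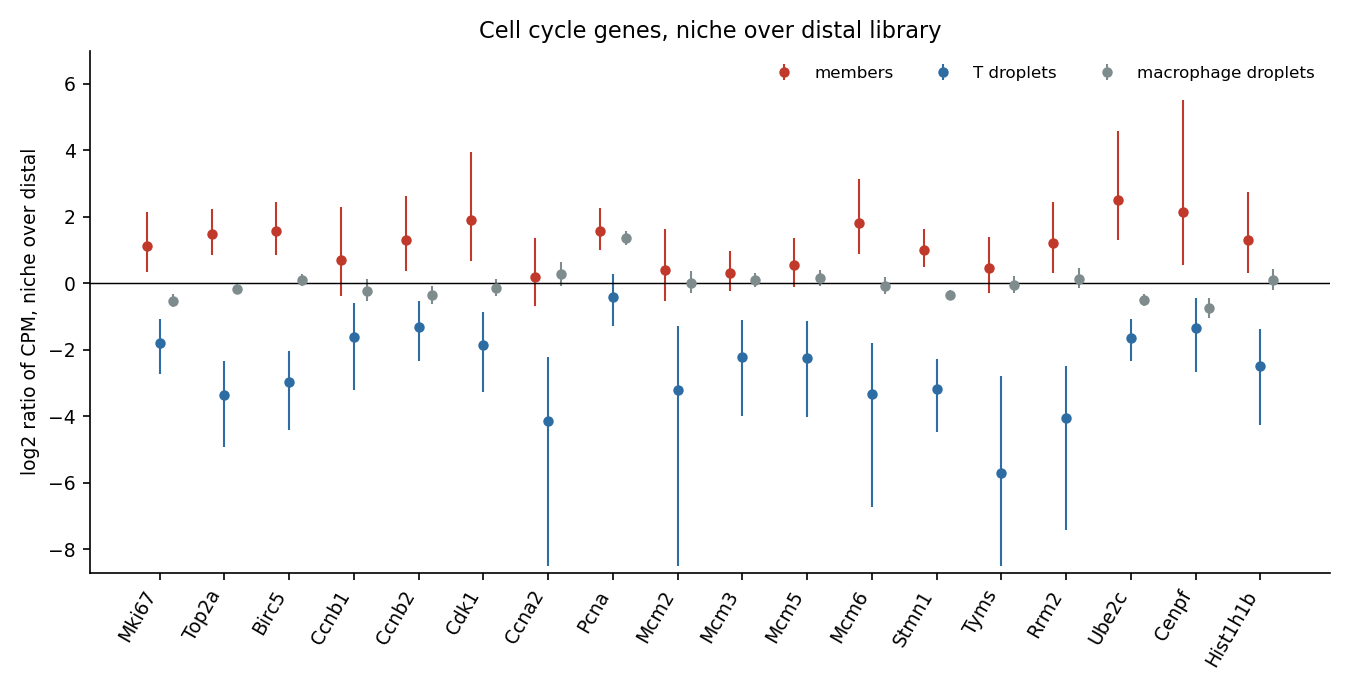
Points give the log2 ratio of CPM, niche over distal library, of 18 cell cycle genes in members, T droplets and macrophage droplets, with exact 95% intervals for counting error cut near the edge of the axis and 0.5 UMI added to each sum. All members' ratios lie above 0 and most T droplets' ratios lie below -1, while macrophage droplets stay near 0 for most genes (Top2a 1.47, -3.35 and -0.16).

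Other genes that differed between niche and distal members were named by a rule that left out genes touched by the different gene lists of the libraries or moving the same way in B cell, neutrophil and endothelial droplets. S100a9 and S100a8, alarmins of neutrophils, reached 397 CPM and 251 CPM in niche members, against 4.39 CPM and 17.6 CPM in distal members. In niche members 50.1% and 51.5% of these UMIs were in 1 droplet, and with a minimum of 5 macrophage UMIs the log2 ratios of S100a9 and S100a8 turned to -0.16 and -0.30. Tubb4b, Tuba1b, Ran and Snrpg were also higher, and Snrpg was higher to the same degree in macrophage droplets (1.34 in members and 1.36). Lower genes included Hpgd, which breaks down prostaglandins, with 9.01 CPM in niche members against 50.5 CPM in distal members (-2.50), and Ramp1, with 28.7 CPM against 121 CPM (-2.08). Mmp12, the macrophage elastase, reached 52.6 CPM against 198 CPM (-1.91), and Fn1, fibronectin, 21.4 CPM against 63.7 CPM (-1.59). Of the 29 Fn1 UMIs in distal members 51.7% were in 1 droplet and 93.1% in 3. Ikzf2, the factor Helios of regulatory T cells, reached 24.2 CPM against 85.7 CPM (-1.83) in members and 25.7 CPM against 255 CPM in T droplets. Pdlim1, Epb41l4aos, Ppm1b, Dhrs3 and Vgll4 made up the rest. Macrophage droplets, niche over distal, were also lower for Hpgd (-3.33), Ramp1 (-2.51), Pdlim1 (-2.19), Fn1 (-1.69) and Dhrs3 (-1.08). They stood at -0.98 for Epb41l4aos, -0.51 for Vgll4, -0.48 for Mmp12, -0.19 for Ppm1b and 0.39 for Ikzf2. Whether members differed beyond macrophage droplets was not tested. Leaving out annotation-linked genes, 0.364% of 7966 genes were called higher and 0.766% lower.

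The naive list made up less of all RNA in niche members, at 830 CPM against 1294 CPM in distal members, and so did the 6 T cell genes of the rule, at 697 CPM against 1079 CPM. Per 1000 T cell UMIs the naive list reached 1192 UMIs in niche members and 1199.6 UMIs in distal members, a log2 ratio of -0.01 (-0.14 to 0.12). Genes that answer interferon gamma reached 6508 CPM in niche members and 4117 CPM in distal members (0.66), beside 8244 CPM and 4177 CPM in macrophage droplets (0.98), with 2 of 14 called higher. Stress genes that tissue dissociation induces reached 4364 CPM in niche members and 6684 CPM in distal members (-0.62), beside 4569 CPM and 8363 CPM in macrophage droplets, with 3 of 14 called lower.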

How the data were processed

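The deposited files give UMI counts as gene-by-barcode matrices without normalization, per the file headers. These name cellranger-6.0.0 for the niche library and version 3.0.2 for the distal library, while Cell Ranger 3.02, Seurat 4.1.1, the tools Bowtie2 and RSEM and the builds mm10 and GRCm38 stand in the submitters' processing notes. The different versions and gene lists cannot be told apart from the groups. Of the gene identifiers 29413 were shared, and 442 of these share exonic bases with a gene of 1 list only.

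A barcode was kept with 200 or more genes and no more than 10% mitochondrial UMIs (3081 of 3242 niche and 3540 of 3945 distal). Members and gene lists were chosen with earlier results of these data known, and the single-gene shares after values had been seen. UMIs were summed over the droplets of a group and compared per 1000 UMIs of the 6 T cell or the 4 macrophage genes, or as CPM of all UMIs. Log2 ratios had 0.5 UMI added, with exact conditional binomial intervals, and shares had Clopper-Pearson intervals, all at 95%, for counting error only. No p-value was computed. A ratio was called with 20 or more UMIs and its whole interval beyond 1.5-fold. The call was tried on simulated sums that varied by counting error alone, with no spread between droplets. It could therefore not show how the call behaves where 1 droplet holds most UMIs of a gene.

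Genes were named from the lists of T cell states with 10 or more UMIs in a group. On the T and macrophage sides, up to 10 genes in each direction were named whose interval lay on the same side of 0 in both libraries. Between niche and distal members, up to 10 called genes in each direction with 50 CPM or more were named. There, genes overlapping a gene of 1 list, or with a log2 ratio of the same sign and a size of 1 or more in B cell, neutrophil and endothelial droplets, were left out. Il12b, Ccl8, Socs1, Folr2, Pf4, Fabp5, Apoe, Marco and Cxcl9 fell outside this rule and were chosen after their values were seen. Alternatives changed the thresholds of the rule, depth, scale and droplets kept. Scripts used scipy 1.17.1, numpy 2.4.6, scanpy 1.11.5 (Scrublet at an expected rate of 0.03), pandas 2.3.3 and matplotlib 3.10.9 under Python 3.11.15.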

Additional observations from a re-analysis of the deposited data

Results flagged for a closer look

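Several results lay in opposite directions in the niche and distal libraries, with intervals on opposite sides of 0 or, for Fabp5 and Il12b, a call in 1 library only. The differences between libraries were not tested, and each library is 1 sample. Ifng per T cell UMI stood at a log2 ratio of 2.48 over T droplets in niche members and at -1.77 in distal members. The niche ratio sets 27 UMIs, 48.1% of them in 1 droplet, against 1 UMI in T droplets. The distal ratio sets 3 UMIs against 267.

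The other values are log2 ratios of members over macrophage droplets per macrophage UMI, for summed lists unless a gene is named. The cell cycle list stood at 0.45 in niche members and -0.71 in distal members. Resident macrophage genes stood at 0.17 and -0.83, genes that answer interferon gamma at -0.21 and 0.18, and genes of T cell attraction and costimulation at -0.21 and 0.066. Dissociation stress genes stood at 0.062 (niche) and -0.13 (distal). Neutrophil genes stood at 1.10 and -3.76, and in niche members 50.1% of the S100a9 UMIs were in 1 droplet. B cell genes stood at 1.06 and -0.43. Fabp5, a fatty acid binding protein, stood at -0.91 in niche members and 0.50 in distal members, and Il12b at 1.21 in niche members with 137 UMIs. Distal members had 0 Il12b UMIs, for which the fitted -3.45 depends on the 0.5 UMI added, and the floor of 3 UMIs over the group gives at least 1.81-fold lower.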

How the results depend on the processing

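Over 11 results of shares, lists and counts of genes, 186 alternatives gave 140 values near the value reported, 33 that moved and 13 that reversed. Over 109 single genes and shares of droplets 1292 of 1418 stayed, 99 moved and 27 reversed. A ratio counted as reversed only where its reported interval excluded 0. The distal regulatory list, whose interval held 0, thus counted as moved at -0.34 and -1.96. The cause of these changes was not tested unless a construction is named. None of the 11 moved with 500 or more genes, without droplets of 2 or more NK genes or without the barcodes of both libraries. No paired analysis was possible because there was 1 library per group. With 1 library per group no replicate could be left out. Depth limits the distal values, with 35 members and 491 T cell UMIs in them, and those of the niche T droplets, with 47 droplets and 753.

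All list values are log2 ratios of members over T droplets, niche before distal where both are given. With a minimum of 5 macrophage UMIs the CD8 and cytotoxic list stood at 0.99 and 0.92, with 20 the distal value was 0.73, and with 50 it was 0.66. It was 1.03 in the niche library with at least 4 T cell genes, 1.08 with T droplets of at most 2 macrophage UMIs, and 0.75 in the distal library without droplets of 3 or more B cell genes. The distal naive list stood at 2.03 with at most 5% mitochondrial UMIs. Without the deepest 5% of droplets the distal share of T droplets that were members was 5.49%, the distal regulatory list stood at 0.70 and the distal CD8 and cytotoxic list at 1.70.

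Thinned to 2000 UMIs before the rule, the shares were 34.0% and 1.60%, the naive list stood at -1.21 and 0.51, activation genes at 0.67 and 0.90, the niche regulatory list at -2.60, CD8 and cytotoxic genes at 0.13 and 0.24, and 12 genes in place of 196 were called between niche and distal members. Only 16 niche and 5 distal members remained, by construction. With 5 to 20 T cell UMIs, chosen after the data were seen, the niche values were 2.05 for activation, 2.52 for regulatory and 1.07 for CD8 and cytotoxic genes, and the distal values 0.58 for naive, 0.72 for regulatory and 1.63 for CD8 and cytotoxic genes. Per UMI of T cell genes outside the rule, the naive list stood at 0.12 and 1.29, CD8 and cytotoxic genes at 0.72 and 0.54, distal activation genes at 0.70 and the distal regulatory list at -0.34.

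As CPM of all UMIs every list was lower in members, which by construction hold macrophage RNA as well: naive at -1.71 and -0.32, activation at -0.38 and -0.92, regulatory at -1.06 and -1.96, and CD8 and cytotoxic at -1.12 and -1.07. With the macrophage share subtracted the naive list stood at -0.13 and 1.23, activation at -0.79 and -0.44, and distal CD8 and cytotoxic genes at -0.19, while the niche value of that list could not be given because the macrophage share exceeded the sum.

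Single genes that reversed were, with a minimum of 5 macrophage UMIs, distal Mgl2 (0.074) and, niche over distal, S100a9 (-0.16) and S100a8 (-0.30), and with at least 2 T cell genes distal Cxcl13 (0.42), distal Ccl24 (0.0044) and Ube2c (-0.55). Under thinning they were, in niche members, S1pr1 (-1.75), Vps37b (-1.02), Gimap3 (-0.10), Hcst (-1.55), Klf2 (-0.91), Cd72 (-0.45), Ccl24 (0.16), Retnla (0.12), Pla2g2d (0.95) and Mgl2 (0.14), and in distal members Gimap3 (-1.30), Ltb (-0.76), Lag3 (1.47), Pdcd1 (2.0), Ccl2 (-2.62), Ccl7 (-1.84), Alox15 (1.06) and Pla2g2d (0.23). With 5 to 20 T cell UMIs niche Lag3 (0.40) and Nkg7 (0.48) reversed, and without droplets of 3 or more B cell genes distal Ccl7 (-2.06).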
